A study of Mus musculus with 4 samples.

Results

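RBPJ regions that lie at the starts of small RNA genes in alveolar macrophages (AMs) are described here. A consensus region was a stretch of merged, overlapping peaks that held at least 1 peak of each of the 2 RBPJ libraries. It was counted here when it reached within 1 kb either side of the start of a gene that GENCODE types as small nuclear RNA (snRNA), small nucleolar RNA (snoRNA), small Cajal body RNA (scaRNA) or microRNA (miRNA). Of 25454 consensus regions, 410 met this rule, and they lay at 380 of 5143 annotated small RNA genes. The choice used position and gene type alone, so the height and sequence of the regions were not part of it. Their placement was part of it, and distances from the start depend in part on the window of 1 kb.

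AMs are the resident macrophages of the airspace. They were collected by bronchoalveolar lavage of young adult WT C57BL/6J mice and sorted by FACS, and RBPJ was profiled by HT-ChIPmentation, in which immunoprecipitated chromatin is tagmented on the beads. The series held 2 RBPJ libraries made with an Abcam antibody (replicates 1 and 2) and 2 input libraries made without antibody, all of WT genotype and without treatment. The labels do not state whether the libraries came from separate animals, and every statement on agreement below is between these libraries only. Replicate 1 had 106228 peaks and replicate 2 had 47224, the inputs entered through the authors' peak calling, and there was no second condition. Of the genes that mark AMs, 9 of 10 had a consensus region within 1 kb of a start, against 0 of 5 for T and B cells, 0 of 5 for endothelium, 1 of 5 for neutrophils (S100a8) and 1 of 5 for type II cells (Etv5). Over all protein-coding genes the share was 33.3%. Marco was the AM gene without one.

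Small RNA genes are read in different ways. RBPJ is the DNA-binding factor of the Notch pathway, and its core letters are TGGGAA. The spliceosomal snRNAs U1, U2, U4, U5, U11 and U12, the histone mRNA processing RNA U7 and the nucleolar RNAs U3 and U8 (together called the Pol II U families below) are textbook examples of short genes with promoters of their own, read by RNA polymerase II. Such promoters carry a proximal sequence element just before the start, bound by the SNAPc complex, and a distal element farther upstream that often holds the octamer ATGCAAAT, bound by Oct-1, with binding sites of ZFP143 and Sp1. U6 and U6atac snRNAs have related promoters read by RNA polymerase III. Most other snoRNAs and many miRNAs are cut out of introns or transcripts of a host gene and follow its promoter. The mouse genome also holds many degenerate copies of snRNA genes, most of them without a promoter.

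To show what the promoters of the U families with high regions look like, the 300 bases before the start are given for 6 genes, 5′ to 3′ on the strand of the gene, from mm10. Capitals mark the octamer ATGCAAAT (ATTTGCAT on the other strand), the RBPJ core TGGGAA on either strand and CACCNTNA on the strand of the gene, letters that form part of the proximal sequence element. In each of them all 300 bases lay inside a consensus region.
Rnu1a1 (chr11:87422567-87422866, plus strand): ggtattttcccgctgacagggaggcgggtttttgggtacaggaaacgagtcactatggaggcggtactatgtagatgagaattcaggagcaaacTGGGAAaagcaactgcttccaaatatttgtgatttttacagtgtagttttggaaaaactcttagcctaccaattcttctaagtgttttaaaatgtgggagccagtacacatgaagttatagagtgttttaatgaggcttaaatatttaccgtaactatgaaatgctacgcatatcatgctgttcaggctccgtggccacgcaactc
Rnu2-10 (chr11:101657938-101658237, plus strand): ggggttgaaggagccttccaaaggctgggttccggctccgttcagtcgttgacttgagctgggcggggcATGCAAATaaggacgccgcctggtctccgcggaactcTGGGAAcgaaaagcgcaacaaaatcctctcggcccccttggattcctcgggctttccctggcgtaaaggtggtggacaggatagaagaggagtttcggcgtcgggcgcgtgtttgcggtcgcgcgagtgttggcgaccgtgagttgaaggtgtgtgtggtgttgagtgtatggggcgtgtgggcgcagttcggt
Rnu5g (chr9:65201842-65202141, minus strand): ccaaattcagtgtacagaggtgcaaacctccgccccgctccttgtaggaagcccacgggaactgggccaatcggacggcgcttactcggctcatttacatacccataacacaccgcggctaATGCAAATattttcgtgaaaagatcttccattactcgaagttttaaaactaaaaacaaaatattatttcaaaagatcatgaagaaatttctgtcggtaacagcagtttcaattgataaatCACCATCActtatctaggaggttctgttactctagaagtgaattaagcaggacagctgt
Rnu7 (chr6:124741287-124741586, minus strand): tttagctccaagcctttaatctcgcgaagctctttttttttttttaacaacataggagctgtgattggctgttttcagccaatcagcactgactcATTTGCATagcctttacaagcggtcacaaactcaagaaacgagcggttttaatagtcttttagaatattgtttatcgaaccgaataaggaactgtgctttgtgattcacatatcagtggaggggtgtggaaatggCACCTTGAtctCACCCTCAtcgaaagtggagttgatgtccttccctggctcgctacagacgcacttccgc
Rnu11 (chr4:132270214-132270513, minus strand): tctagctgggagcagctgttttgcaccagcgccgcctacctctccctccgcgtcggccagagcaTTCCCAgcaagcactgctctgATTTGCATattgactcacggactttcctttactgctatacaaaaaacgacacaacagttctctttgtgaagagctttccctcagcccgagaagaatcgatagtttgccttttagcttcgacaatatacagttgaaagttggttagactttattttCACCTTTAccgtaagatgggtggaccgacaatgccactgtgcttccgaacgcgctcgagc
Snord118 (chr11:69073127-69073426, plus strand): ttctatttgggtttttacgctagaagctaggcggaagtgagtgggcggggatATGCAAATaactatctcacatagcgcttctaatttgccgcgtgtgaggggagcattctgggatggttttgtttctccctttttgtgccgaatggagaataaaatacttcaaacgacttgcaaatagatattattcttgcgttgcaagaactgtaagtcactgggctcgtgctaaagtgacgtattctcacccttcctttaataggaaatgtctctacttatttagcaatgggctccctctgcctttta
In 5 of these 6, all but Rnu1a1, the octamer stood far from the start, with its leftmost letter between -248 (Snord118) and -179 (Rnu5g). CACCNTNA stood at -59 in Rnu5g, at -60 in Rnu11 and at -70 and -59 in Rnu7. TGGGAA was present before Rnu1a1 (-206), Rnu2-10 (-194) and Rnu11 (-236), and absent from the other 3 windows. In these 3 genes it lay within the longer letters TTCCCAG, read on the opposite strand to TGGGAA and part of the ZFP143 site. Positions are counted from the start, with -1 for the base before it.

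For the macrophage miRNAs, the mature sequences are given to show which target seeds the marked genes encode (RefSeq, GRCm38.p6, seed bases 2 to 8 in capitals). All 9 macrophage miRNA genes with a region were matched in the RefSeq table.
miR-21a-5p: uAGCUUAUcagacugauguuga
miR-142a-5p: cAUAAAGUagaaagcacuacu
miR-142a-3p: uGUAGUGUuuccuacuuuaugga
miR-511-3p: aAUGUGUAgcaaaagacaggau
miR-23a-3p: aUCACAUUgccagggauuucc
miR-27a-3p: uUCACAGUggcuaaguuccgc
miR-24-3p: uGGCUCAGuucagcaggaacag
miR-15a-5p: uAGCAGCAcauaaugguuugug
miR-16-5p: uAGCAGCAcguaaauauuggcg
miR-22-3p: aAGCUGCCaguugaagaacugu
miR-15a-5p and miR-16-5p share the seed AGCAGCA, and the other seeds differ from one another.

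The first question was which kinds of small RNA gene had an RBPJ region. Among all small RNA genes the share was 7.39% (Wilson 95% interval, 6.71% to 8.14%, for counting error only), below the 16.4% of genes of any annotated type and the 33.3% of protein-coding genes with a region at any start. By type, a region was present at 77 of 1383 snRNA genes (5.57%), 112 of 1507 snoRNA genes (7.43%), 5 of 51 scaRNA genes (9.80%) and 186 of 2202 miRNA genes (8.45%). Genes inside a host on the same strand had a region more often, 219 of 2131 (10.3%, 9.06% to 11.6%), than genes that were not, 161 of 3012 (5.35%, 4.60% to 6.21%). The gap was widest for snoRNAs, at 89 of 664 inside a host (13.4%) and 23 of 843 elsewhere (2.73%), while the intervals of the host classes overlapped for snRNAs, scaRNAs and miRNAs.

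**Figure D1:**
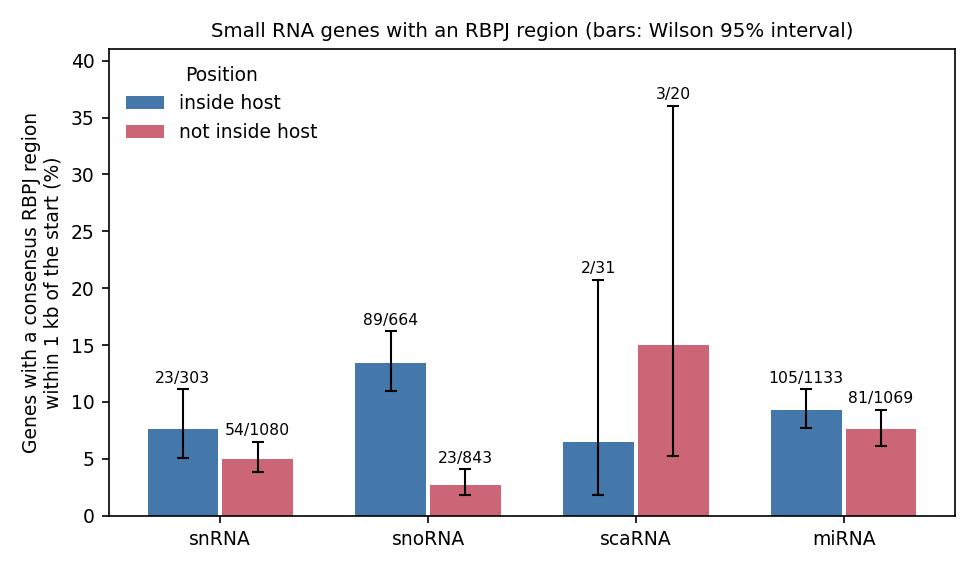
Percent of annotated small RNA genes with a consensus RBPJ region within 1 kb of the start, by GENCODE gene type, for genes inside a host gene on the same strand (blue) and all others (red). Error bars are Wilson 95% intervals for counting error and the labels give genes with a region over genes annotated. Among snoRNAs the share was 13.4% inside a host and 2.73% elsewhere.

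Much of the annotation of these types consists of computed genes without a family name, and named genes had a region more often. Of snoRNA genes with a Snord name (box C/D, guides of methylation) 32 of 98 had one (32.7%), and of those with a Snora name (box H/ACA, guides of pseudouridylation) 17 of 42 (40.5%), against 63 of 1367 (4.61%) with any other name. Among genes typed miRNA the split was small, at 108 of 1174 (9.20%) with a Mir name and 78 of 1028 (7.59%) without. Some entries are recorded more than once at the same start, as are the U3 genes. With each start counted once, 374 of 5130 starts had a region.

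In height the regions at small RNA genes reached above the consensus as a whole. Height is given as the lower fold, the smaller of the fold enrichments that the authors' peak caller gave to the strongest peak of the region in each library. A lower fold of at least 10 was found in 53 of 410 regions (12.9%, 10% to 16.5%), against 2.97% of all 25454 consensus regions. The median lower fold was 5.36 (range 2.28 to 26.6), against 4.69 over all consensus regions. Protein-coding starts lay within 1 kb of 224 of the 410 (54.6%), against 34.8% of all consensus regions. The 186 without one kept the high end, with 28 (15.1%) at 10 or more, whereas 2.07% of the other consensus regions away from coding starts and 4.23% of those at coding starts were as high. Among all consensus regions ranked by lower fold, the regions at small RNA genes held 6 of the top 10, 11 of the top 20 and 24 of the top 100. Of these, 11 and 20 of the top 20 and top 100 were nearest to a U family gene.

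The height went with coverage of the start itself. In 147 regions that covered a small RNA start the median lower fold was 7.03 and 38 (25.9%) reached 10. In 152 regions whose edge lay up to 500 bp away the median was 5.25 and 10 (6.58%) reached 10, and in 111 regions beyond 500 and up to 1000 bp away it was 4.55 and 5 (4.50%). Just outside the limit, 111 regions with an edge beyond 1000 and up to 1500 bp away had a median of 5.36 and 5 (4.50%) at 10 or more. Width moved with height, with a median of 1158 bp at the Pol II U families described next and 691.5 bp at genes of no U family, and its part in these counts was not tested.

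High regions made up a larger share at the Pol II U families, a grouping by RefSeq product name that was made after the values had been seen, than at the other genes. These families had 48 regions with a median lower fold of 9.25, of which 24 (50%, 36.4% to 63.6%) reached 10. The 326 regions nearest to a gene of no U family had a median of 5.18 and 26 (7.98%, 5.50% to 11.4%) at 10 or more, and the 34 at U6 genes a median of 5.42 and 2 (5.88%). Of these 34, 17 lay within 1 kb of a protein-coding start. High folds were not particular to genes read by RNA polymerase II. The single U6atac region had a lower fold of 15.1, and the 8 polymerase III genes of other annotated types described below had a median of 10.2. In replicate 1 alone the medians were 12 and 7.39 for the Pol II U families and the regions of no U family, and in replicate 2 they were 11.4 and 5.48, so both libraries gave the same order. The families differed in how many of their annotated starts had a region. It was present at 6 of 8 U3, 7 of 11 U5, 3 of 4 U12, 9 of 29 U2 and 2 of 11 U4 starts, at the single U8 start and at 1 of 5 U11 starts, but at only 6 of 123 U1, 2 of 45 U7 and 30 of 709 U6 starts. Of 1383 snRNA genes, 953 could be given a family, and 16 genes with a region could not.

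**Figure D2:**
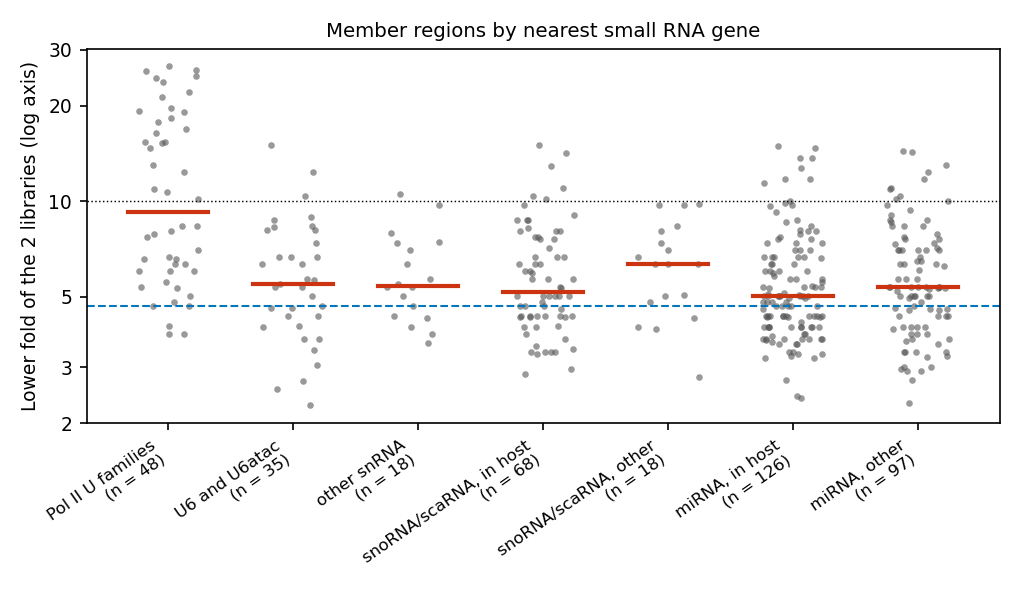
Lower fold of the 2 RBPJ libraries (log axis) for the 410 regions, grouped by the nearest small RNA gene, 1 point per region. Red bars are group medians, the dashed blue line is the median of all 25454 consensus regions (4.69) and the dotted line marks 10. The Pol II U families had a median of 9.25 with 24 of 48 points at 10 or more, and in no other group did the median exceed 6.35.

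Among the major spliceosomal RNAs, the region with the highest lower fold lay at a pair of U4 genes, Gm24265 and its neighbour Gm24407, on chromosome 5 (115488071 to 115491323), where replicate 1 gave a fold of 26.6 and replicate 2 a fold of 27.1. It had rank 5 among all consensus regions, counting from the highest. U4 pairs with U6 until the spliceosome is activated. At Rnu1a1, which encodes U1, the RNA that recognizes the 5′ splice site, replicate 1 gave 25.8 and replicate 2 gave 46.2, with the summit 33 bp before the start (chromosome 11, 87421748 to 87424643). At Rnu5g, a U5 gene, it was 26.9 and 24.8 in replicates 1 and 2, with the summit at -72. The libraries were close at the U4 pair and at Rnu5g and far apart at Rnu1a1, where replicate 2 was higher. Of the other U5 copies, Gm24871 had 29.2 and 23.8 and Gm25099 had 29.7 and 22.1. The remaining 4 were lower, with 25 and 13 at Gm25313 and lower folds of 5.57 to 7.03 at Gm22265, Gm23287 and Gm23143. U2, which pairs with the branch point, had no region in the top 20. Its highest values were at Gm23444 (16.6 and 16.4), Gm24497 (20 and 15.4) and Gm23971 (20.8 and 15.4), and Rnu2-10 had 10.7 in replicate 1 and 20.5 in replicate 2.

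Of the minor spliceosome, which removes a rare class of introns, Rnu11, Rnu12 and the U6atac gene Gm25541 are described. At Rnu11 the fold was 30.4 in replicate 1 and 24.4 in replicate 2 (chromosome 4, 132268912 to 132270830). At Rnu12 it was 19.6 and 22.8 with the summit at -77, and at Gm25541 it was 21.6 and 15.1 with the summit at -55. A lower region stood beside Rnu12 (4.82 and 7.03). Rnu7, whose RNA is needed to cut the ends of histone mRNAs, had a fold of 14.4 and 12.4. Rnu11, Rnu12, Gm25541 and Rnu7 thus each had a region with a fold above 10 in both libraries. Other copies were lower in part. The 7 regions nearest to U12 genes had a median lower fold of 6.36, with 2 at 10 or more. Of the 2 regions nearest to U7 genes, the lower had 4.69.

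The nucleolar U3 and U8 RNAs act in the processing of ribosomal RNA. At the U8 gene Snord118 the fold was 26.4 in replicate 1 and 18.4 in replicate 2, with the summit at -59. The U3 gene Rnu3a had 15.2 and 30.8, and the U3 copy Gm25203 on chromosome 12 had a region with a lower fold below 10. The U3 genes Rnu3b1 to Rnu3b4 lie side by side on chromosome 11 within the annotated span of Tex14, a protein-coding gene. So do Rnu1a1 and the U1 copy Gm22068 (16.9 and 32.5). Rnu3b1 had 30 and 25.8, Rnu3b2 21.3 and 23.1, Rnu3b3 19.2 and 26.1, and Rnu3b4 22.3 and 19.1. Because of Tex14 the rule counted these genes as inside a host, although none of their regions lay within 1 kb of a Tex14 start. The U13 gene Snord13 had 17.5 and 8.03.

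**Figure D3:**
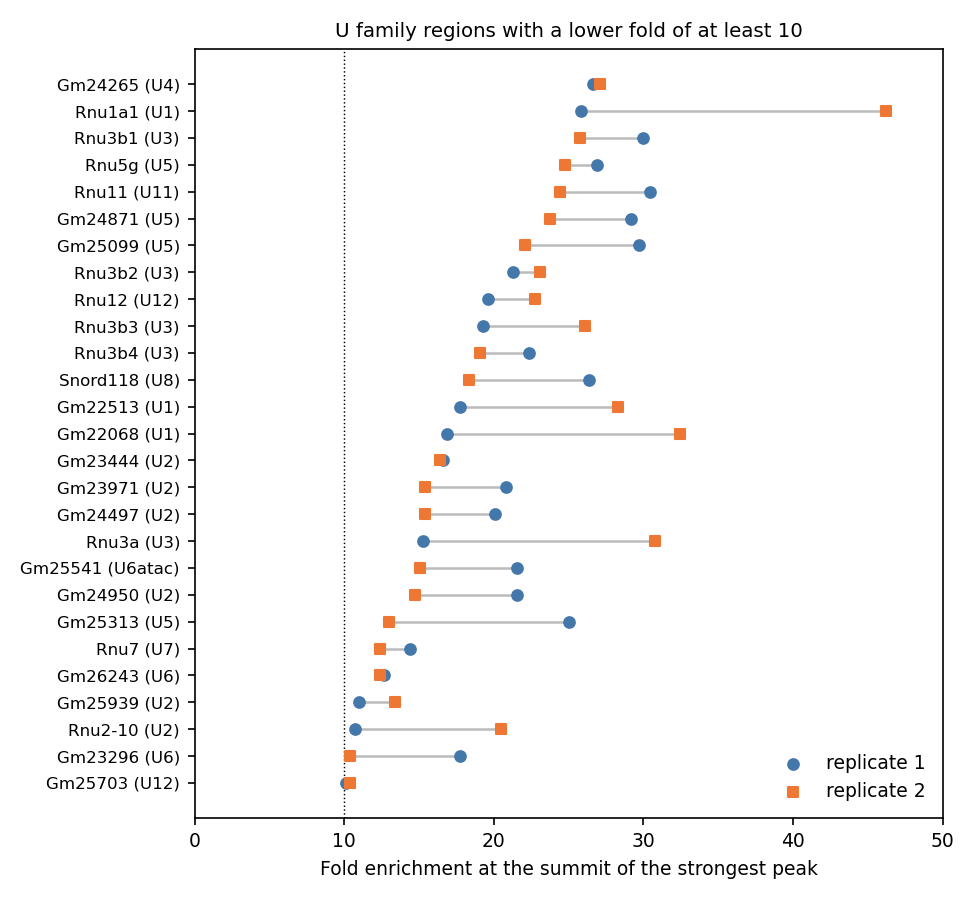
Fold enrichment in replicate 1 (circles) and replicate 2 (squares) at the 27 U family regions with a lower fold of at least 10 (dotted line), named by the nearest gene with the family in parentheses. Gray lines join the libraries. At Rnu1a1 replicate 2 gave 46.2 and replicate 1 gave 25.8, the widest plain difference in that direction.

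The named U1 genes Rnu1b1, Rnu1b2 and Rnu1b6 and the U6 entries Rnu6 and Rnu6-ps2 had no consensus region. How far reads could be placed at such genes was described by the share of 50-base words that occur more than once in the assembly, since the authors kept only reads of high mapping quality. The 3 Rnu1b genes and the 300 bases before each of them consisted of such words to 100%, so an empty peak list there is no measurement of absence. Rnu6 likewise consisted of them to 100%, and the 300 bases before it to 75.7%. At Rnu6-ps2 they made up 3.45% of the gene and 0% of the 300 bases before it, so exact repeats were few there. Copies that differ by some bases were not counted. At Rnu1a1 the 300 bases before the start held none. Among U family genes with a region the median share in the gene body was 41.3%, and among those without it was 0.00%.

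Repeated words also went with the shape of the regions. At 8 U family starts no region covered the start while a region stood on each side within 1 kb. At 7 of the 8 the gap between the regions consisted of repeated words to 100%. Over all 8 starts, the flanking regions themselves held a median of 18.5% within the same 1 kb. The 7 with fully repeated gaps were Rnu3b1 to Rnu3b4, the U2 genes Gm24950 and Gm23971, and the U1 gene Gm22614. Their gaps ran from 262 to 897 bp. At Rnu3b1 the gap was 358 bp long, at 87442975 to 87443332 of chromosome 11, with a lower fold of 4.69 before it and 25.8 behind it. The highest summits of Rnu3b1 to Rnu3b4 stood 266 to 299 bp behind the start, where repeated words made up 0% to 15.8% of the summit window. Whether the gaps set these positions was not tested. What the signal was within the gaps could not be read from these lists. Over windows of 100 bp either side of the summit, 347 of 410 regions (84.6%) and 58 of the 84 at U families (69.0%) held no repeated word, against 94.7% of all consensus regions. With only such windows kept, 10 of 25 Pol II U family regions (40%) and 24 of 289 of no U family (8.30%) reached 10.

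Summits of the Pol II U families gathered around the start. Their median distance from it was 260 bp in either direction, and 30 of 48 (62.5%) lay within 300 bp. In the 200 bp before the start lay 12, and 13 lay 200 to 400 bp behind it. These 13 include the summits of Rnu3b1 to Rnu3b4 that stood beside gaps of repeated words. For all 410 regions the median distance was 552 bp and 125 (30.5%) lay within 300 bp. For regions inside a host and of no U family it was 647 bp, with 124 of 200 summits before the small RNA and 76 behind it. The libraries placed the summit within 100 bp of each other in 29 of 48 Pol II U family regions (60.4%) and in 222 of all 410 (54.1%), against 52.3% over all consensus regions.

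**Figure D4:**
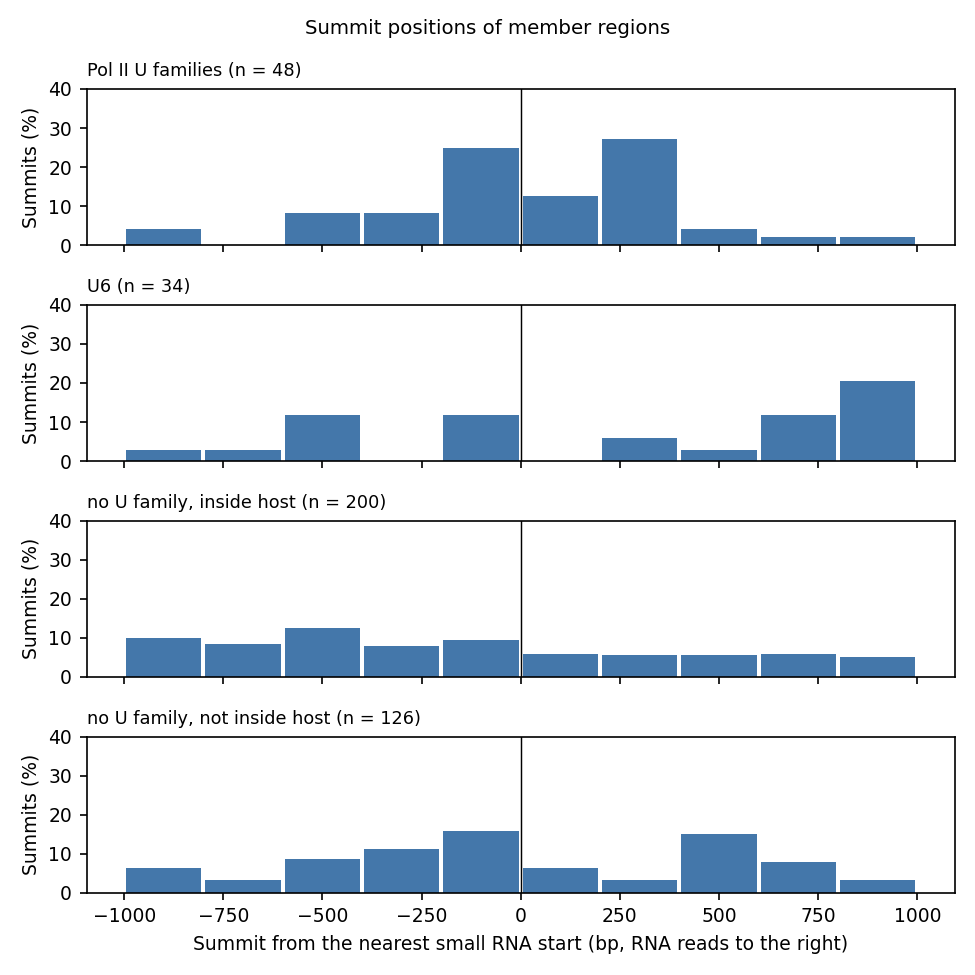
Distance of the summit from the nearest small RNA start in 200-bp bins, as percent of the regions of each group, with negative values before the start. Summits more than 1 kb away (3, 10, 47 and 24 regions from top to bottom) are not drawn. Summits of the Pol II U families cluster on either side of the start, with 12 of 48 in the 200 bp before it, while regions inside hosts are spread with 124 of 200 before it. Those 200 to 400 bp behind Pol II U family starts include summits of Rnu3b1 to Rnu3b4, beside gaps of repeated words.

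The letters before the starts, which the rule had not used, differed between U family starts with and without a region. These groups also differed in family. U1 and U7, with 123 and 45 starts, made up most of the Pol II U family starts without a region. A region was present at 6 U1 and 2 U7 starts, against 9 of 29 U2 and 7 of 11 U5 starts. No comparison within families was made, here or for the letters below. The octamer ATGCAAAT, on either strand, was present in the 300 bases before 21 of 37 Pol II U family starts with a region (56.8%, 40.9% to 71.3%) and 11 of 200 without (5.50%, 3.10% to 9.58%). Over 41409 protein-coding starts the share was 1.73%, and over the 13669 of them with a region it was 1.44%. Reversed without complementing, the same letters were found before 0 of 37 and 0 of 200 starts. Seen from the other side, 21 of 32 Pol II U family starts with the octamer had a region (65.6%, 48.3% to 79.6%), against 16 of 205 without it (7.80%, 4.86% to 12.3%). All 9 U2 starts with a region were among the 21. Copies of a family can share sequence. The intervals here and for the letters below count such copies as separate starts. Where a region was present, the highest of each start had a median lower fold of 14.7 with the octamer and 16.5 without it. The U4 region shared by Gm24407, with the octamer, and Gm24265, without it, entered both medians. Starts without the octamer included Rnu1a1 and the related copies Rnu3b1 to Rnu3b4. The position of the octamer differed as well. With a region, 20 of 21 octamers began between -266 and -179, with a median of -228. Without a region, 3 of 11 began in that stretch, at the U2 genes Gm26316 and Gm22973 and the U7 gene Gm27393, which were named after their values had been seen.

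The proximal element letters differed in position more than in presence. CACCNTNA on either strand was present before 14 of 37 Pol II U family starts with a region (37.8%, 24.1% to 53.9%), 22 of 200 without (11%, 7.38% to 16.1%) and 11.3% of protein-coding starts. Reversed, it was found before 10 of 37 (27%) and 27 of 200 (13.5%), so its mere presence differed little from that of the reversed letters. On the strand of the gene, 8 of 9 matches before starts with a region began between -70 and -59, whereas 0 of 13 matches before starts without a region began between -75 and -40. Among U6 starts the octamer was present before 5 of 30 with a region (16.7%) and 21 of 679 without (3.09%). The high U6 regions at Gm26243 (12.7 and 12.4) and Gm23296 (17.8 and 10.4) were among these 5, which rested on 4 regions. Counted by start rather than by nearest gene, 1 of the 25 regions at U6 starts without the octamer also had a lower fold of at least 10.

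**Figure D5:**
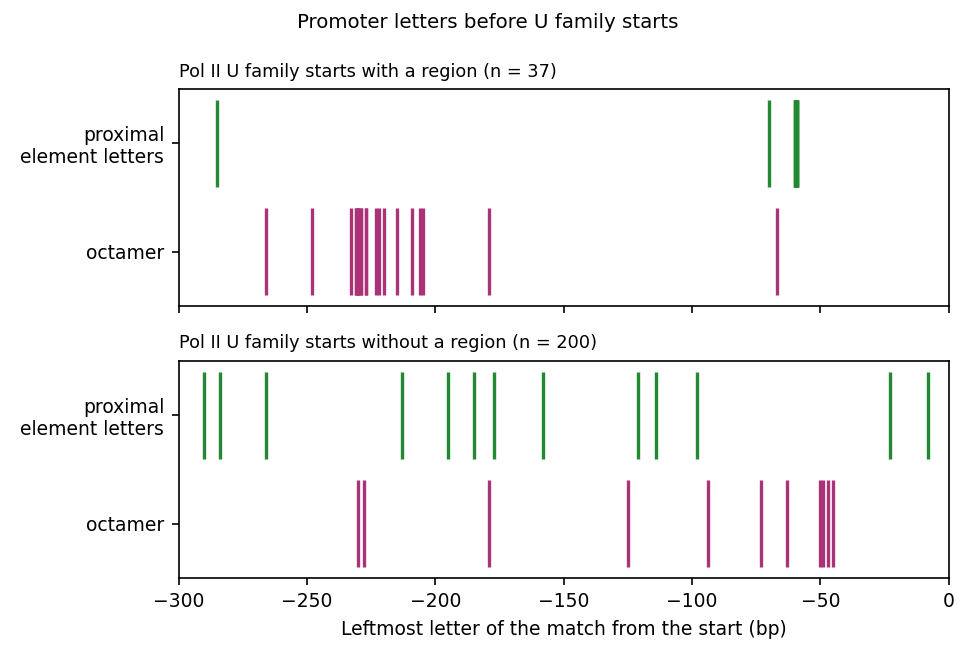
Positions of the octamer and of the proximal element letters (gene strand) in the 300 bp before Pol II U family starts with (top, 37 starts) and without (bottom, 200 starts) a region, 1 line per match. With a region, 20 of 21 octamers begin between -266 and -179 and 8 of 9 proximal element matches between -70 and -59, and without a region the matches are scattered.

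The RBPJ core was about as frequent near these summits as near those of the consensus as a whole. TGGGAA lay within 100 bp of the summit in 74 of 410 regions (18%, 14.6% to 22.1%), against 18.8% of all consensus regions, and the reversed letters in 41 (10%), against 9.82%. The share was 25.0% at Pol II U families (12 of 48), 5.88% at U6 genes (2 of 34) and 18.4% elsewhere (60 of 326). TTCCCAG, part of the ZFP143 site, contains TGGGAA on its other strand in full. It was found near 29 summits (7.07%), against 6.66% of all consensus regions, and 48 regions (11.7%, against 12.9%) held TGGGAA outside it. In the 300 bases before Pol II U family starts TGGGAA was as frequent with a region (10 of 37, 27%) as without (47 of 200, 23.5%), while TTCCCAG was present before 9 of 37 (24.3%, 13.4% to 40.1%) and 16 of 200 (8%, 4.98% to 12.6%). The further ZFP143 letters ACTACAA and CCCAGCATG were present before 0 of the 37, for which the Wilson interval reaches up to 9.41%. ACTACAA was present before 3.90% and CCCAGCATG before 0.584% of protein-coding starts.

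Host genes made up a large part of the remaining regions. Of 200 regions inside a host and of no U family, 135 lay within 1 kb of a start of that host, with a median lower fold of 5.58, and 65 did not, with a median of 4.35. Among snoRNAs 51 of 65 lay at the host start (78.5%), and 29 of the 65 belonged to 23 ribosomal protein genes and 7 to 7 small nucleolar RNA host genes (Snhg, Gas5). Snord14c, in the chaperone gene Hspa8, had 15.5 and 15.1 in replicates 1 and 2, Snord2, in the translation factor gene Eif4a2, 14.2 and 21.8, and Gm24029, in Eif4a1, 16.7 and 12.9. These were named after their values had been seen, since the U3 genes took the first places among hosted snoRNAs. Outside hosts, the third highest snoRNA region after Snord118 and Rnu3a was that of Gm25861, with 9.83 and 10.2. Of the scaRNAs, which guide modification of snRNAs, Scarna2 stood free of any host and had 14.4 and 9.71 with the summit at -86, while Scarna13, in Snhg10, had 9.90 and 8.70 and Gm26083, in Snhg20, 4.82 and 5.36. Gm23119 had 5.07 and 6.27.

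For miRNAs, 79 of 126 regions inside a host lay at its start (62.7%). The highest were at Gm22240, in Itprip (15 in replicate 1 and 39.8 in replicate 2), at Mir1938, in Ifrd1 (16.7 and 14.7), and, with the same lower fold, at Mir21a, in Vmp1 (22.6 and 13.7), and Gm22133, in the ferritin gene Ftl1 (24.1 and 13.7). Their summits lay at -208 (Gm22240), 1277 (Mir1938), -2785 (Mir21a) and -1753 (Gm22133). All but that of Gm22240 were thus more than 1 kb from the start of the miRNA gene. Outside hosts the 3 highest were at entries whose neighbours were other kinds of gene. Gm44394 (23.3 and 14.4) lay opposite the histone gene Hist1h2ae, Gm23935 (14.3 and 22.8) lay opposite Zc3h7a with 59.2% repeated words at its summit, and n-TStga1 (19.5 and 13.1) carries a tRNA name. The entries Gm47295 and Gm47299 shared their regions with the 7SL RNA genes Rn7s1 and Rn7s2.

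Of 25 miRNAs known from macrophages, 9 had a region (36.0%, 20.2% to 55.5%), against 2 of 25 known from other tissues (8%, 2.22% to 25.0%) and 8.45% of all miRNA genes. Mir142, a miRNA of blood cells, had 8.63 in replicate 1 and 13.4 in replicate 2, with the summit 48 bp before the hairpin. Mir21a lay in a region of 11334 bp (chromosome 11, 86576563 to 86587896), with the summit at -2785. Its folds are thus not those at the hairpin itself. Mir511, in an intron of the mannose receptor gene Mrc1, had a region of its own 1287 bp behind its start (7.61 and 4.35), apart from that at the Mrc1 promoter (11.4 and 7.03). Mir23a, Mir27a and Mir24-2 shared 3 regions, with 9.39 and 6.5, 5.33 and 5.36, and 8.37 and 4.95 in replicates 1 and 2. Mir15a and Mir16-1 in Dleu2 shared 1 (4.57 and 3.68), and Mir22 had 4.57 and 4.02. Regions shared by a cluster are no separate measurements, and the 9 genes rested on 8 regions, of which 3 belonged to the Mir23a, Mir27a and Mir24-2 cluster. The shares and intervals given above count clustered hairpins as separate genes. No region was found at Mir223, Mir155, Mir146, Mir33, Mir125a, Mir99b, Mirlet7e, Mir17, Mir18, Mir19a, Mir20a, Mir92-1, Mir29a, Mir29b-1, Mir181a-1 or Mir342, whose hairpins can lie far from the promoter that reads them. From the other tissues, Mir200c and Mir141 shared a region (5.33 and 3.25). None was found at Mir1a-1, Mir133a-2, Mir206, Mir208a, Mir124a-1, Mir124a-2, Mir9-1, Mir9-2, Mir128-1, Mir126a, Mir375, Mir200a, Mir200b, Mir203, Mir205, Mir34b, Mir34c, Mir449a, Mir451a, Mir144, Mir150, Mir196a-1 or Mir10b.

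The genes whose products read, process or carry these RNAs were examined beside them. Of 21 snRNA promoter and processing factors, 16 had a region at a start (76.2%, 54.9% to 89.4%), against 33.3% of protein-coding genes. The highest were Zfp143, the factor of the distal element (36.0 and 52.1), Gtf2a1, a TFIIA subunit (9.64 and 10), and Sp1 (12.2 and 9.71). No region was found at Snapc4, Ice2, Ints1, Ints11 or Zc3h8. Of 12 snoRNA and scaRNA particle proteins, 11 had a region (91.7%), with Naf1 (8.88 and 8.25), Wrap53 (10.1 and 8.03) and Nop56 (8.12 and 7.36) highest and Coil without. Of 14 miRNA processing genes, 9 had one (64.3%), with Tnrc6c (9.39 and 10.4), Tnrc6b (11.2 and 6.36) and Drosha (5.58 and 4.95) highest. All 8 RNA polymerase III genes of other annotated types had a region, against 16.4% of genes of any annotated type, with a median lower fold of 10.2. The highest 3 were Rn7sk, whose RNA holds the elongation factor P-TEFb (22.5 and 14.7), Rn7s1 (15.2 and 12.4) and Vaultrc5, a vault RNA (14.4 and 12.4). Whether these counts differ from those of other expressed genes was not tested.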

How the data were processed

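RBPJ HT-ChIPmentation libraries of sorted AMs were analysed from their deposited peak lists, 1 per RBPJ library (n = 2), grouped as the labels group them. The input libraries have no list of their own here. According to the submitters' processing notes, reads were made with bcl2fastq 2.20.0.422 and CASAVA, trimmed with cutadapt and aligned to mm10 with Bowtie2, and SAMtools and MACS3 were used. The authors kept properly paired, non-duplicate reads of mapping quality above 30 and called peaks per library against input at a q-value of 0.05. The deposited fold enrichment is the ratio of the library to its background at the summit, as the authors' peak caller wrote it. The deposited −log10 p and −log10 q values, the display score and the summit offset come from the same caller, and of these the −log10 q and the summit were used here. Read depth is not part of the lists, and no removal of problematic regions is given in the sources used here.

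The peaks were merged and placed against GENCODE M21 (GRCm38) starts, and RefSeq product names gave the U families. The lower fold of a region is the smaller of its library maxima, and its summit is that of the strongest peak. Letters were searched on both strands of mm10. Words of 50 bases that occur more than once on the assembled chromosomes were called repeated. No test was run across conditions, because there is 1 condition. Counts, medians and Wilson 95% intervals are given beside those of all consensus regions. Intervals cover counting error only. The overlap step was tested on simulated data. Named genes were the snRNA genes with a gene symbol of their own, the 10 highest regions, the 3 highest of each type and host class, the listed miRNAs and up to 3 genes per factor list. The U families, with the further U family and snoRNA genes named, were added after the values had been seen. The members and lists were chosen with earlier results of these data known. The software was Python 3.11.15, numba 0.67.0, pysam 0.24.0, pandas 2.3.3, numpy 2.4.6, matplotlib 3.10.9 and scipy 1.17.1. Alternatives changed the peak threshold, window, host rule, fold, motif window and libraries. A further promoter sequence is not reported here.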

Additional observations from a re-analysis of the deposited data

How the results depend on the processing

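No paired analysis was possible because the results come from no test and the inputs have no lists of their own. Of 76 alternative values, 27 moved. A count was held to have moved when it changed by over 1.5 times, a share when it left its Wilson interval, and a fold or distance when it moved by more than the spread between the libraries. By this measure region counts of 274 to 612 had not moved, and the cause was not tested unless the alternative itself removes regions. Requiring summits of the libraries within 100 bp left 222 regions at 223 genes, and dropping regions at protein-coding starts left 186 at 186. With 1 library at a time there were 531 to 1066 regions at 421 to 651 genes, the larger counts with replicate 1 alone. The share with a lower fold of at least 10 was 19.3% with a −log10 q of at least 5 in both lists and 9.97% with a window of 2 kb. A threshold of 8 gave 23.4% (8.73% of all consensus regions) and a threshold of 15 gave 4.88% (0.303%). With 1 library at a time it was 10.4% to 12.6%. The median fold was 7.61 by replicate 1 and 4.82 to 5.02 over lists of 1 library. TGGGAA was present in 8.78% within 50 bp of the summit (9.97% of all consensus regions), 34.1% within 200 bp (33.9%) and 55.9% of whole regions (48.6%), and in 18% to 20.7% with 1 library at a time. Of genes with a region, 57.6% lay inside a host, against 41.4% of all small RNA genes. This was 50.5% without coding starts, 72.9% with a host on either strand, 45% with a coding host on the same strand and 56.3% to 57.5% with 1 library. The median summit distance of 552 bp became 540 with close summits, 521 at the stricter q, 418 and 938 bp with windows of 500 bp and 2 kb, 526 without coding starts, 574 with the summit of the other library and 519 to 537 with 1 library. It was 607 bp where the summit window held no repeated word. That alternative, and the counting of shared starts once, were chosen after seeing the data, as was the grouping by U family. Without coding starts 18 of 40 Pol II U family regions (45%) and 8 of 128 of no U family (6.25%) reached 10. Peaks of 2 libraries without known separate animals, and without counts, limit how finely heights can be ranked.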
